A study of Mus musculus with 8 samples.

Results

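The genes described here are 35 genes of the extracellular matrix, of the enzymes that remodel it and of cell adhesion that were assigned a p53-bound region with a higher signal after bleomycin (BLM) treatment in mouse alveolar organoids. They were taken from the authors' deposited table of 1425 genes by their symbols (collagens, laminins, other matrix proteins, proteases and their inhibitors, cadherins, claudins, keratins, semaphorins, ephrins and their receptors), which leaves 1390 other genes for comparison. ChIP-seq, in which DNA bound by a protein is pulled down with an antibody (here to p53) and sequenced, was done on organoids grown from sorted alveolar type II (AT2) cells of adult male wild-type mice. The CTRL group (2 libraries) received DMSO for 24 h, and the BLM group (2 libraries) received 100 μM bleomycin, an agent that breaks DNA, for 24 h. All 4 libraries carry the wild-type genotype, and no sample without p53 was analysed here. The organoids are an epithelial culture without feeder cells, whereas many of the genes below are best known from fibroblasts. A peak list holds no expression values, so the AT2 identity of the cells could not be checked against marker genes.

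p53 is a transcription factor that accumulates after DNA damage and binds a defined DNA element, often within or close to its target genes and also at distant sites. The extracellular matrix is the scaffold of collagens, laminins and glycoproteins that surrounds cells, and in the alveolus a thin laminin- and collagen IV-containing basement membrane lies under the epithelium. In lung fibrosis the matrix is expanded and remodelled, and damaged alveolar epithelium changes its junctions, keratins and guidance receptors.

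For each library the authors deposited a list of peaks, each with a fold enrichment over the local background. The lists hold 48743 to 50430 peaks for CTRL and 39577 to 41451 for BLM. The number of reads is not in them, so the depth is unknown. Percentiles below rank a peak's fold enrichment among all peaks of its own list, where 100 stands for the top peak. A region counts as called in a library when a peak overlaps it by at least 1 bp. Since the table was chosen by the authors for a higher signal in BLM than in CTRL, differences between the conditions at these regions are given as a description and were not tested. In bulk chromatin, more bound cells and more binding per cell cannot be told apart.

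The 35 genes had 38 assignments to 36 distinct regions. *Epha4* had 3 regions, *Col4a6* had 2 and the other 33 genes had 1 each. *Cldn4* and *Cldn13* were assigned 1 and the same region, as were *Krt20* and *Krt23*. By RefSeq (GRCm38.p6), symbols of these families belong to 471 protein-coding genes, of which 35 (7.43%) were in the table, against 6.28% of all 21896 protein-coding genes. The table held 8 of 44 collagen genes, 5 of 34 laminin, glycoprotein and proteoglycan genes, 7 of 42 semaphorin, ephrin and ephrin receptor genes and 8 of 140 cadherin, protocadherin, claudin and galectin genes. It also held 5 of 158 genes of matrix enzymes and inhibitors and 2 of 53 keratin genes. The shares describe how the members were chosen and are not a result about them.

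The p53 regions of these genes mostly lay far from the transcription start site (TSS), as did those of the other genes. The nearest region was within 5 kb of the TSS for 2 of the 35 genes (5.71%), between 5 and 50 kb for 13 (37.1%) and above 50 kb for 20 (57.1%). Among the other 1390 genes, the shares were 13.2% within 5 kb, 35.0% between 5 and 50 kb and 51.9% above 50 kb. The median distance was 82056 bp for the members (quartiles 20731 and 182834 bp) and 53379 bp for the other genes (quartiles 15277 and 149607 bp). A distance above 500 kb was found for 4 members (11.4%) and for 58 other genes (4.17%). These 4 genes were *Tnc*, *Cdh10*, *Adamts5* and *Cdh13*, with distances of 854216, 802313, 677515 and 546707 bp.

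**Figure D1:**
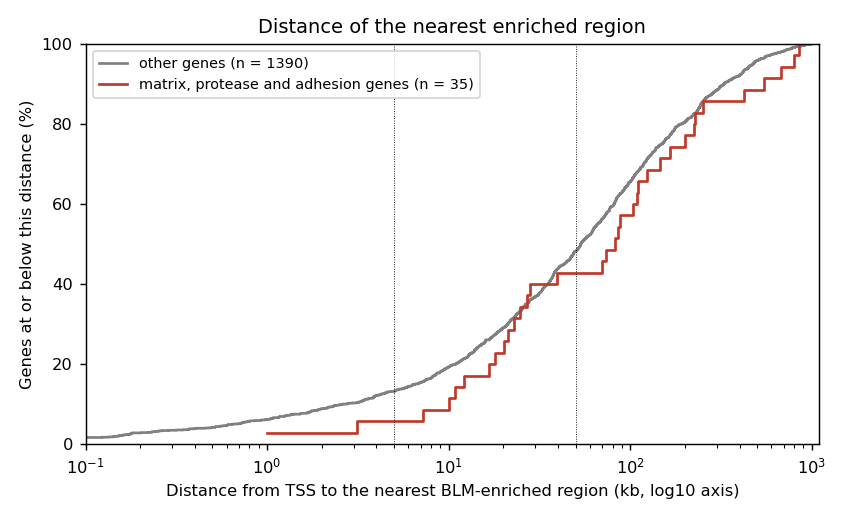
Cumulative share of genes (%, vertical axis) by distance from the TSS to the nearest BLM-enriched region (kb, log10 axis), for the 35 members (red) and the 1390 other genes (grey). The dotted lines mark 5 and 50 kb, and the red line lies below the grey line at 5 kb and at 50 kb.

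The assignment gives a region to up to 2 flanking genes, so a member is not always the gene nearest to its region. The member was the closer of 2 genes for 15 of the 35, the farther for another 15 and the sole gene for 5. Of the 8 collagen genes, 6 were the farther gene. The region of *Col6a1*, 200975 bp upstream of its TSS, lies 34645 bp from *Pcbp3*, and that of *Sdc1* lies 5138 bp upstream of *Laptm4a*. With each region counted only for its closest gene, 20 members were left with a median distance of 75842 bp, and 795 other genes with a median of 23851 bp. By the length of the gene in RefSeq, the nearest region lay upstream of the TSS for 16 members, inside the gene for 9 (25.7%) and beyond its end for 10 (28.6%). The shares among the other genes were 27.99% inside and 28.6% beyond the end.

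The nearest regions of all 35 genes, 33 distinct regions, were called in both BLM libraries, as for 99.9% of all genes of the table. A CTRL peak was present in both libraries for 8 genes (22.9%) and in a single one for 3 (8.57%). The shares over all genes of the table were 28.2% and 12.5%. The remaining 24 members (68.6%) were called in BLM alone, that is, in both BLM libraries and without any CTRL peak. The share called in BLM alone was 59.2% over all genes of the table and 56.8% over all 915 enriched regions. Over the 36 distinct regions of the members the count was 26. The split by distance differed more. Of the 20 genes with a region beyond 50 kb, 19 had no CTRL peak there, against 65.7% of the 721 other genes at such distances. Of the 15 genes with a region within 50 kb, 5 (33.3%) had none, against 51.6% of the 669 other genes. Those 5 were *Cldn4*, *Cldn13*, *Epha4*, *Loxl4* and *Sema6a*. The exception among the distant ones was *Sema6d*. The groups are small, and the near one counts the shared regions of *Cldn4* and *Cldn13* and of *Krt20* and *Krt23* under both genes. No cut other than 50 kb was tried. A cut just below 26877 bp would put *Krt20*, *Krt23* and *Sema4a*, which have a CTRL peak, among the distant genes.

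**Figure D2:**
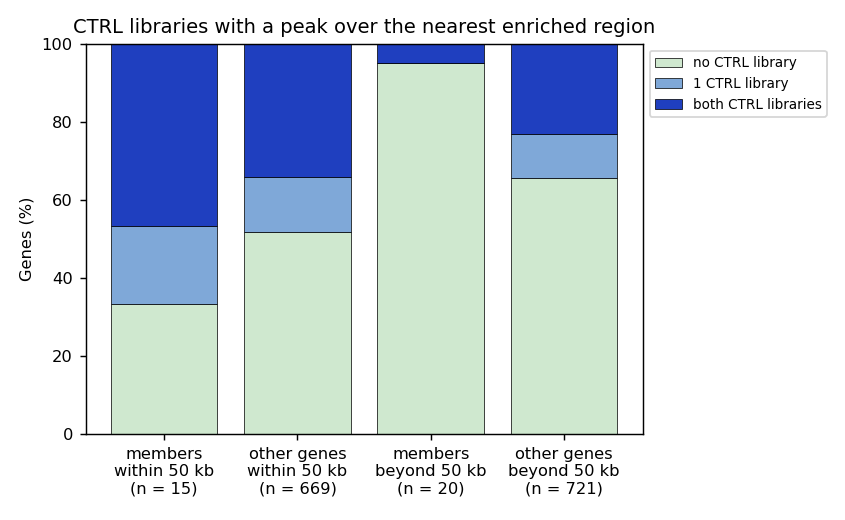
Share of genes (%, vertical axis) whose nearest BLM-enriched region was called in no, 1 or both CTRL libraries, for members and other genes within and beyond 50 kb of the TSS. The bar of the 20 distant members is almost wholly without a CTRL peak, with 1 gene called in both CTRL libraries.

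Within their own lists the peaks of the members ranked high in BLM. The median percentile was 94.5 in BLM replicate 1 and 91.8 in BLM replicate 2, against 88.2 and 85.8 for the other genes. Both peaks lay in the highest 10% of their lists for 15 members (42.9%), against 36.9% of all genes of the table, and in the highest 1% for 4 members (11.4%), against 18.6% of the other genes. In the CTRL lists the called peaks had a median percentile of 63.6 (9 genes) and 34.2 (10 genes), against 55.6 and 57.7 for the other genes. The members' median thus lay above that of the other genes in CTRL replicate 1 and below it in CTRL replicate 2. These medians cover partly different genes, since *Sema4a* was called only in replicate 1 and *Col2a1* and *Pcdhgc5* only in replicate 2. The members' percentiles ran from 0.74 to 96.6 in CTRL replicate 1 and from 9.12 to 93.7 in CTRL replicate 2. In both BLM libraries the members' lowest peak was in the lower part of the list, at percentile 2.92 and 36.7. The percentiles of 1 gene in the BLM libraries differed by a median of 4.94 points, against 7.14 points for the other genes.

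**Figure D3:**
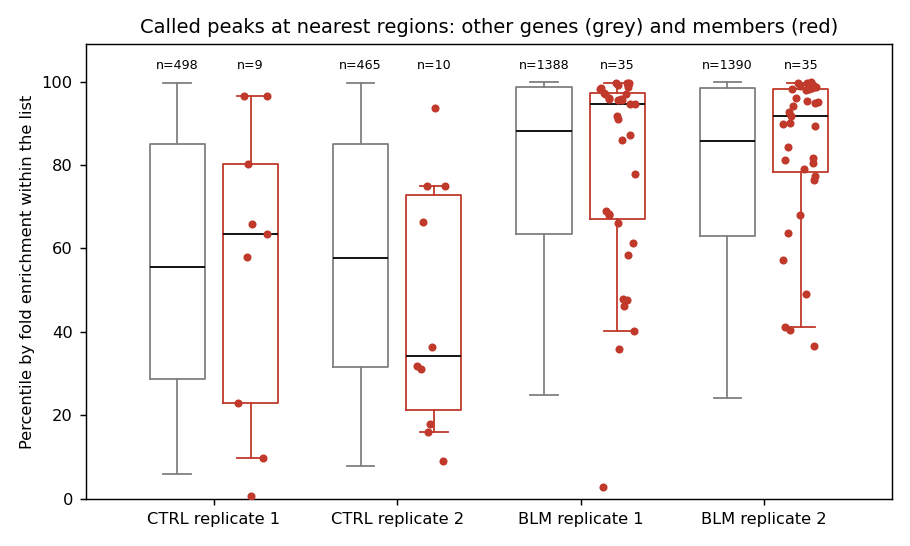
Percentile by fold enrichment within each of the 4 peak lists (vertical axis) of called peaks over nearest regions, for other genes (grey) and members (red, 1 point per gene). Boxes give quartiles and the median, whiskers the 5th and 95th percentile, and the red points crowd above 90 in the BLM lists and spread widely in the CTRL lists.

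Guidance receptors and their ligands, which steer cell contact and migration, held the nearest regions of all. *Epha2* encodes a receptor tyrosine kinase for ephrin-A ligands on epithelial cells. Its region, at 141031463 to 141031862 on chromosome 4 of GRCm39, lies 3111 bp downstream of the TSS and inside the gene. In the CTRL libraries its fold enrichment was 8.91 and 17.4, and in the BLM libraries 36.02 and 34.4. Both BLM values were above both CTRL values, and the BLM mean was 2.68 times the CTRL mean. In the BLM lists it ranked 123 of 39577 and 140 of 41451. The peak itself was wider in BLM, at 1161 and 1665 bp against 466 and 613 bp in CTRL.

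*Sema6a*, a transmembrane semaphorin gene on chromosome 18, had the closest region of all members, at a distance of 993 bp upstream. Peaks were present in BLM alone, at 7.21 and 10.1 (percentile 58.5 and 80.6). A CTRL peak lay 290 bp away from this region. Its BLM peaks thus stood well below those of *Epha2*.

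*Sema4a* encodes a semaphorin with roles in immune and epithelial cells. Its region on chromosome 3 (88402133 to 88402532, GRCm39) lies 39286 bp upstream of its TSS and 8310 bp downstream of that of *Lmna*, which encodes nuclear lamins. The fold enrichment was 30.0 and 24.1 in BLM, and 8.19 in CTRL replicate 1. In CTRL replicate 2 no peak was called.

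*Epha4*, another ephrin receptor gene, had regions 17963 bp upstream and 43931 and 434110 bp downstream of its TSS. None of the 3 was called in a CTRL library. At the upstream region the enrichment was 19.7 in BLM replicate 1 and 9.84 in BLM replicate 2, so the replicates were far apart. The downstream peaks had 7.45 and 9.37, and 5.57 and 5.97.

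For *Efnb2*, which encodes the ligand ephrin-B2, the region lies 103625 bp downstream, and the fold enrichment was 15.3 and 12.3 in BLM with no CTRL peak. *Sema4f* and *Sema6d*, with regions 82056 and 108531 bp downstream, were low. The *Sema6d* peak had 9.21 and 9.32 in CTRL and 8.26 and 10.8 in BLM, and the conditions overlapped. For *Sema4f* the values were 6.40 and 6.12 in BLM, below the middle of both lists at percentile 46.2 and 41.3.

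Of the laminins, which build basement membranes, *Lama5* stood out. It encodes the laminin α5 chain, a main laminin of the alveolar basement membrane. Its region on chromosome 2 (179878245 to 179878644, GRCm39) lies 10792 bp upstream of its TSS and 20726 bp upstream of that of *Rps21*. The fold enrichment was 4.51 and 5.88 in CTRL and 24.3 and 32.2 in BLM, a ratio of 5.44 between the means. This ratio is the highest among the 8 members called in all 4 libraries. The percentile moved from 9.75 and 31.2 in CTRL to 99.2 and 99.6 in BLM. *Lama2*, which encodes the laminin α2 chain of muscle and nerve, showed no such separation. Its peak 16593 bp upstream had 11.99 and 6.24 in CTRL and 14.4 and 9.48 in BLM, and the conditions overlapped.

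*Tnc* encodes tenascin C, a glycoprotein of matrix under repair. Its region on chromosome 4 is the most distant of all members, 854216 bp upstream of the TSS and 222943 bp upstream of *Pappa*. Enrichment was 21.3 and 15.98 in BLM, no CTRL peak was called, and the nearest CTRL peak lay 576275 bp away. The regions of *Fn1* (fibronectin, 110491 bp upstream) and *Sdc1* (the proteoglycan syndecan-1, 145203 bp downstream) were also uncalled in CTRL. Their fold enrichment in BLM was 6.47 and 7.19 for *Fn1* and 17.1 and 12.5 for *Sdc1*.

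Collagens are the main fibre and network proteins of the matrix. For 7 of the 8 collagen genes the nearest region was uncalled in both CTRL libraries, and the same 7 lay above 50 kb. *Col2a1*, the cartilage collagen gene, had the only collagen region within 50 kb. It lies 22825 bp downstream of the TSS, inside the gene, at 97879552 to 97879951 on chromosome 15 (GRCm39), and 17641 bp downstream of the TSS of *Tmem106c*. Enrichment was 24.7 and 20.2 in BLM and 4.44 in CTRL replicate 2, with no call in CTRL replicate 1.

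*Col6a1*, which encodes a chain of the microfibrillar collagen VI, had 19.5 and 21.9 in BLM at a region on chromosome 10 (76762778 to 76763177, GRCm39). *Col4a6*, of the basement membrane collagen IV, had a region 85398 bp downstream with 15.2 and 15.3 and a second one with 22.2 and 19.1. For this gene the positions and the distances disagree. The regions are 288240 bp apart by the deposited positions and 405993 bp apart by the deposited distances, a gap of 117753 bp. The cause was not tested, and the distances of all members come from mm10.

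*Col18a1*, the source of endostatin, and *Col28a1* had 12.6 and 14.6, and 11.0 and 18.7, at 88420 bp upstream and 250611 bp downstream. The fibril-associated *Col12a1* (69628 bp downstream, inside the gene) and the fibril-forming *Col5a1* (164693 bp upstream) had lower peaks, with 9.44 and 10.3, and 7.51 and 7.74. The lowest of the collagens was *Col25a1*, a transmembrane collagen gene, with 3.67 and 6.06 at 228826 bp downstream, inside the gene. The collagen peaks in BLM thus ran over a wide part of the lists.

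**Figure D4:**
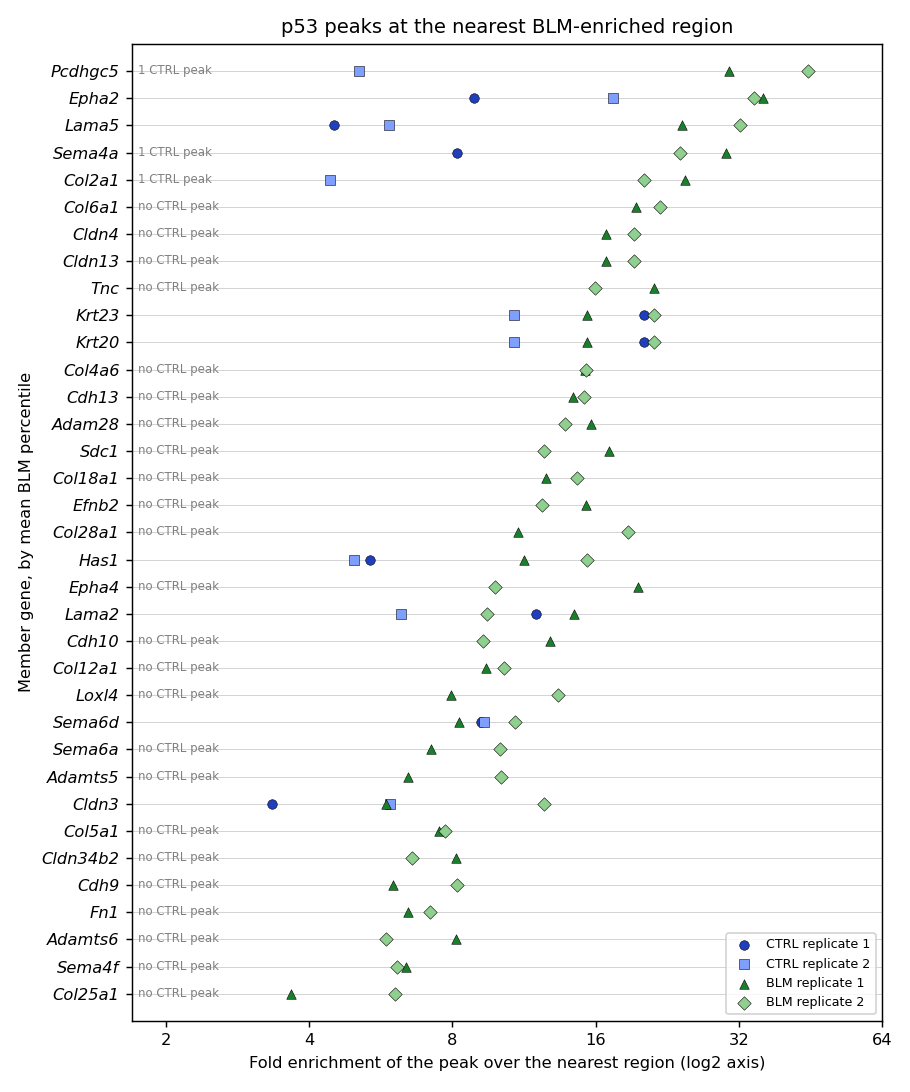
Fold enrichment (log2 axis) of the peak over the nearest BLM-enriched region of each of the 35 genes, 1 symbol per library, ordered by mean percentile in the BLM lists. Grey text marks genes with no or 1 CTRL peak, and CTRL symbols reach or pass a BLM symbol for *Krt20*, *Krt23*, *Lama2*, *Sema6d* and *Cldn3*.

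Claudins form the tight junctions that seal epithelia. *Cldn4*, a claudin of the injured and remodelling alveolar epithelium, and its neighbour *Cldn13* were assigned the region at 134965517 to 134965916 on chromosome 5 (GRCm39). It lies 10072 bp downstream of the *Cldn4* TSS and 21336 bp upstream of that of *Cldn13*. It was called in BLM alone, with enrichments of 16.8 and 19.3 (percentile 97.1 and 98.1). The region of *Cldn3*, also in this gene cluster, lies 12189 bp downstream of its TSS and 10896 bp upstream of that of *Abhd11*. Its peak had 3.35 and 5.93 in CTRL and 5.81 and 12.5 in BLM, and the conditions overlapped. *Cldn34b2* had 8.13 and 6.58 in BLM, 73557 bp upstream and without a CTRL peak. This region lies nearer to the TSS of *Sat1* (14480 bp), and the spacing of the 2 genes differs from that in RefSeq by 19437 bp.

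*Pcdhgc5* belongs to the clustered γ-protocadherins, adhesion molecules best known from neurons. Its region on chromosome 18 lies 7184 bp downstream of its TSS, inside the gene, and 108684 bp from the TSS of *Diaph1*. The fold enrichment was 30.6 and 44.7 in BLM and 5.10 in CTRL replicate 2, with no peak in CTRL replicate 1. With ranks of 173 and 85 in the BLM lists it had the highest mean percentile of all 35 genes.

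The cadherin genes *Cdh9*, *Cdh10* and *Cdh13* encode calcium-dependent adhesion molecules. Their regions are 422996 bp upstream, 802313 bp downstream and 546707 bp downstream. The *Cdh13* region lies inside the gene, and 514048 bp upstream of *Hsbp1*. *Cdh13* had 14.4 and 15.1 in BLM, *Cdh10* had 12.8 and 9.29, and *Cdh9* had 6.01 and 8.20. None of the 3 was called in CTRL. The nearest CTRL peak was 350149 bp away for *Cdh13*, 5517501 bp for *Cdh10* and 2781005 bp for *Cdh9*. The median over the 24 members without a CTRL peak was 14044 bp, against 11879 bp for the other genes.

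Matrix enzymes gave few strong peaks. *Has1*, which encodes a hyaluronan synthase, had 5.38 and 4.98 in CTRL and 11.3 and 15.3 in BLM at a region 20126 bp downstream of its TSS. Both BLM values were above both CTRL values, by a ratio of 2.57 between the means, but the region lies nearer to *Spaca6* (4058 bp). *Adam28*, a disintegrin and metalloprotease gene, had 15.7 and 13.8 in BLM at 124286 bp upstream.

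*Loxl4* encodes a lysyl oxidase that crosslinks collagen, and its peak had 7.95 and 13.3 at 24806 bp downstream. The ADAMTS metalloprotease genes *Adamts5* (677515 bp upstream) and *Adamts6* (225910 bp downstream) had 6.46 and 10.1, and 8.16 and 5.81. All of these but *Has1* were uncalled in CTRL. No member was a matrix metalloproteinase, a tissue inhibitor of metalloproteinases or a serpin (0 genes of each).

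*Krt20* and *Krt23* encode epithelial keratins, which are intermediate filament proteins. The region between them, at 99355654 to 99356053 on chromosome 11 (GRCm39), lies 26877 bp upstream of *Krt20* and 28110 bp downstream of *Krt23*. Its fold enrichment was 20.2 and 10.8 in CTRL and 15.4 and 21.2 in BLM. The conditions overlapped, with a ratio of 1.18 between the means. Of the 11 members that also had a CTRL peak (10 distinct regions), 6 had both BLM values above every CTRL value. These were *Epha2*, *Lama5*, *Sema4a*, *Col2a1*, *Pcdhgc5* and *Has1*. In the full gene set, 87.8% of the 580 genes called in this way did. Replicate numbers are not tied to a mouse by the labels. Under both numbers, BLM was above CTRL for 5 of the 8 members called in all 4 libraries, *Lama2* and *Cldn3* included. The exceptions were *Krt20* and *Krt23*, which share 1 region, and *Sema6d*. BLM was above CTRL in this way for 90% of all genes of the table called in all 4 libraries. A fold enrichment was computed against each library's own background and is not the count by which the authors chose the regions.

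The summits of both BLM libraries were separated by a median of 17 bp over the members and 14 bp over the other genes. They were at most 50 bp apart for 30 of the 35 members (85.7%) and for 90.9% of the other genes. The widest gap, 198 bp, was at *Cldn3*. Peak widths in BLM had a median of 308 and 303 bp for the members and 300.5 and 289 bp for the other genes.

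Peaks over the promoters were also examined, since the enriched regions mostly lie elsewhere. A TSS position on GRCm39 follows from where a region lies and how far it is from the gene, and it was obtained for 24 members and 1043 other genes whose strand was given. These positions combine mm39 regions with mm10 distances, and a shift between the builds would misplace a window. Of 18 members whose spacing to the gene sharing their region could be compared with RefSeq, 10 were within 50 bp of it, and the others were off by 52 to 43005 bp (*Sema6d*). The spacing rests on the mm10 distances alone, since the position of the region cancels out, so it cannot show a shift between the builds. For *Epha4* its 3 regions implied the same position. A peak overlapping the interval from 250 bp before to 50 bp after the TSS was called in all 4 libraries for 7 members (29.2%) and in none for 15 (62.5%). The shares were 50.5% and 36.3% for the other genes. Over the 9 of these members whose spacing was within 50 bp, 3 (33.3%) were called in all 4 libraries and 4 (44.4%) in none, against 54.1% and 34.5% of 377 other genes. How far windows misplaced by a shift between the builds add to the promoters without a peak was not tested. Within 5 kb of the TSS, 13 of the 24 members had no peak in any library (54.2%), against 24.7% of the other genes. The totals of peaks within 5 kb were nearly equal in the libraries, with 36 and 34 in CTRL and 35 in each BLM library.

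The promoters called in all 4 libraries were those of *Cldn3*, *Cldn4*, *Epha2*, *Epha4*, *Efnb2*, *Lama5* and *Sdc1*, and *Sema4f* was called in 3. At *Cldn3* the fold enrichment was 32.2 and 25.2 in CTRL and 18.5 and 19.5 in BLM. At *Efnb2* it was 5.69 and 6.20 in CTRL and 8.90 and 10.8 in BLM. At *Sdc1* the values were 14.8 and 13.5 in CTRL and 9.48 and 11.9 in BLM, and at *Lama5* they were 6.95 and 7.53 in CTRL and 8.36 and 8.95 in BLM. The spacing of *Sdc1* was off by 430 bp, and that of *Efnb2* and *Cldn4* could not be checked. The conditions did not overlap at 4 of the 7 promoters. CTRL was higher at 2 (*Cldn3* and *Sdc1*), against 39.9% of all 534 promoters called in the 4 libraries, and BLM was higher at 2 (*Efnb2* and *Lama5*), against 12.2%. At *Epha2* the promoter peak, unlike the one inside the gene, had 11.1 and 13.2 in CTRL and 7.97 and 11.4 in BLM, lower in BLM under both replicate numbers although the ranges overlapped. *Krt23* was the sole member with a promoter peak in BLM alone. Its fold enrichment was 6.95 and 5.42, and its summits lay at -116 and -85 bp from the TSS. Such a promoter was found for 1.12% of all genes with an implied TSS. Over the 63268 joined peak regions of the 4 libraries, 2.03% were called in BLM alone and 8.4% in CTRL alone (both CTRL libraries, no BLM peak).

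**Figure D5:**
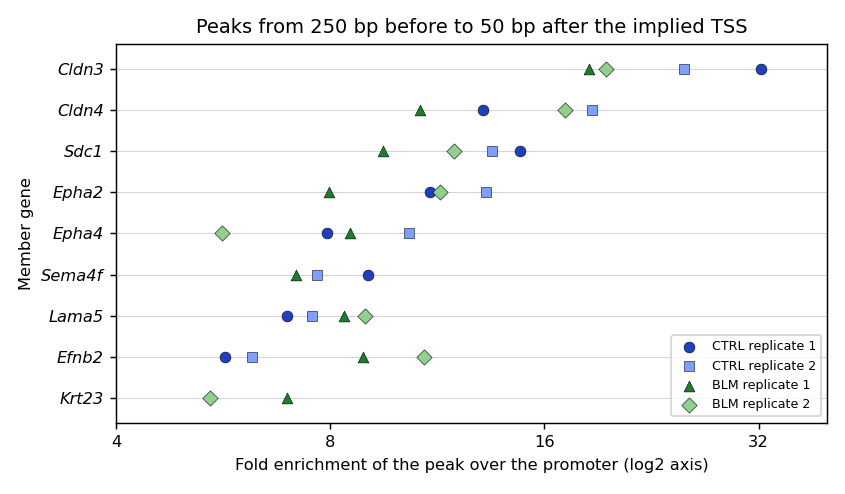
Fold enrichment (log2 axis) of the peak overlapping the interval from 250 bp before to 50 bp after the implied TSS, 1 symbol per library, for the 9 members with such a peak. CTRL symbols lie to the right of BLM symbols at *Cldn3* and *Sdc1* and to the left at *Efnb2* and *Lama5*, and *Krt23* has BLM symbols alone.

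The promoter sequences of 4 members are given to show what these intervals hold. *Cldn3* had the highest promoter peak in CTRL, *Epha2* has the high peak just inside the gene, *Krt23* had a promoter peak in BLM alone, and *Has1* had no promoter peak. They are RefSeq sequences of GRCm38.p6, 5′ to 3′ on the strand of the gene, from 250 bases before to 50 bases after the start. Positions are chr5:134985964-134986263 (plus strand) for *Cldn3*, chr4:141300971-141301270 (plus) for *Epha2*, chr11:99493071-99493370 (minus) for *Krt23* and chr17:17855139-17855438 (minus) for *Has1*. Capitals mark an exact p53 half-site. The CTRL summits of the *Cldn3* peak lay at -305 and -326 bp from its implied TSS, before the start of the interval shown. Its BLM summits lay at -241 and -214 bp. All 4 genes are among those whose spacing to the gene sharing their region was within 50 bp of that in RefSeq. This does not place their windows on GRCm39.
Cldn3: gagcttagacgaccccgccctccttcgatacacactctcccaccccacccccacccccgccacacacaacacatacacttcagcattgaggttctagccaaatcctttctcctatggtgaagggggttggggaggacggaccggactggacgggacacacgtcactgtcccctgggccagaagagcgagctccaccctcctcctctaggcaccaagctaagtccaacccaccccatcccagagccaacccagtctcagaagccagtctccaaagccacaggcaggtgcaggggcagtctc
Epha2: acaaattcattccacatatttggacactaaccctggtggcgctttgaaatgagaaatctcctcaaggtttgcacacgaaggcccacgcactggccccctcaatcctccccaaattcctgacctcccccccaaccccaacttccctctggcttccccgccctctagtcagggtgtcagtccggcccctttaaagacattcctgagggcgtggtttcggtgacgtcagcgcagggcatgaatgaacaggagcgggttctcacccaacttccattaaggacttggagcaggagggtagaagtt
Krt23: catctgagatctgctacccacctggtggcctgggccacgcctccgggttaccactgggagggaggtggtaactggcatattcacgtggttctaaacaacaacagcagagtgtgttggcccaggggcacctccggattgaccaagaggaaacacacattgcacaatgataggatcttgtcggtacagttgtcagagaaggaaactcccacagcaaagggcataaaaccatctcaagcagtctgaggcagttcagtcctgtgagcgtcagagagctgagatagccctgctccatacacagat
Has1: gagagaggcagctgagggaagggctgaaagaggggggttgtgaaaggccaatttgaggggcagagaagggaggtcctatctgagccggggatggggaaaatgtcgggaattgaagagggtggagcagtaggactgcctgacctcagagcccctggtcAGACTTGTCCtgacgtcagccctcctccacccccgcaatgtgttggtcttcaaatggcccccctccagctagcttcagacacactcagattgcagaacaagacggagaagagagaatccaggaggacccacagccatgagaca

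The full p53 element was taken as 2 adjoining half-sites on either strand with at most 3 mismatches and intact cores. It was in 0 of the 31 promoter sequences of 25 members. The shares were 2.14% of 1400 promoters of genes of the gene table and 1.38% of all 32851 promoters in RefSeq. With shares this low, 31 promoters are too few to read a 0 as a difference. An exact p53 half-site was in 1 of the 31, against 7.64% of the promoters of genes of the gene table and 8.36% of all promoters. It was that of *Has1*, and it starts 93 bases before the TSS. These letters are therefore not in the windows of the other 3 sequences, which is a description of the windows and bears on no factor. The sequences of the enriched regions themselves were not analysed here.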

How the data were processed

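ChIP-seq peaks were analysed in 2 CTRL and 2 BLM libraries of mouse alveolar organoids. For the 4 input libraries no file was used here. Per the labels, the submitters' processing notes name Trim Galore 0.6.7, Bowtie2 2.5.1, MACS3 3.0.0b1, DiffBind 3.8.4 and edgeR 3.40.2, without their settings. The authors deposited 1 peak list per library on mm39 (GRCm39), holding for each peak a score, a fold enrichment (a ratio) and −log10-transformed p and q. The lowest deposited −log10 q was 2.00. They also deposited 915 enriched regions and a gene table made with GREAT 4.0.4 on mm10 (5000 bp upstream, 1000 bp downstream, at most 1000000 bp extension). The positions printed in that table equal those of the mm39 regions, while its distances come from mm10. The criteria for enrichment are not given in the sources used here.

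Python 3.11.15 (pandas 2.3.3, numpy 2.4.6, matplotlib 3.10.9) was used for overlaps, ranks and plots. For a gene the nearest region was used, and for a region the overlapping peak with the highest fold. The implied TSS agreed within 10 bp for 140 of 148 genes with several regions and a strand in the RefSeq table. The overlap code was checked on simulated lists. The genes, families and comparisons were chosen with earlier results of these data known. Values in all libraries were given for genes within 5 kb and for the 10 highest by mean BLM percentile (11 with a tie), and for further members. The exact half-site search, the split of calls at 50 kb without each library, the order of conditions at promoters and by replicate number, the promoters with a checked spacing and the stricter look at the *Krt23* promoter were added after values were seen. No test was run, since the rule used the contrast, genes share regions, and 2 libraries against 2 allow no two-sided exact permutation p below 0.333. The organoids came from 2 wild-type mice by the legend of the study, but the labels do not tie libraries to mice, so the spread between replicates may be technical.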

Additional observations from a re-analysis of the deposited data

Results flagged for a closer look

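A peak outside the authors' enriched list was called over the *Krt23* promoter in BLM alone. It spans 99383778 to 99384196 on chromosome 11 of GRCm39, and its middle lies 24 bp upstream of the implied TSS. The fold enrichment was 6.95 in BLM replicate 1 and 5.42 in BLM replicate 2, at percentile 54.4 and 29.0 of the lists. It was looked at because no comparison of the enriched regions uses it and because no CTRL peak lies there. Within 10 kb of the TSS of the 24 members with an implied position, such a peak outside the list was found for 1 gene in BLM (4.17%) and for 2 genes in CTRL, *Krt23* and *Lama5* (8.33%). The shares among the other 1043 genes were 2.59% and 11.5%. Whether binding at *Krt23* differs between the conditions was not tested.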

How the results depend on the processing

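Of 48 values under other settings, 41 kept within the limits set for a change and 7 did not. Some of the 41 could not have left their limits. These were the fold percentiles without 1 library and the counts called in BLM alone without a BLM library. The limits were also wide: the share of members without a promoter peak counted as kept at 62.5% and 44.4%. The number kept is therefore no measure of stability. With 1 gene per region, the median distance of the other genes was 23851 bp, and 14 members (of 20 left) were called in BLM alone, because the farther gene of each region is dropped. With near taken as within 2 kb, 1 member was near, and within 10 kb it was 3. The mean of the BLM medians was 93.2 for the members, 90.8 without the keratin genes, and for the other genes 87.0, 84.6 with a −log10 q of at least 5 and 89.5 with the region highest in BLM. An exact half-site, in place of the full element, was in 1 promoter. Leaving out each library in turn gave 24 to 26 members called in BLM alone, of which 5 to 7 were within 50 kb and 19 in every case beyond. These counts could not fall, so they do not measure stability. All members were called in both BLM libraries, and with 1 left out a call in the other sufficed. Leaving out a CTRL library can only remove CTRL calls, and *Sema6d*, the exception beyond 50 kb, was called in both. The median percentile ran from 91.8 to 94.5 for the members and from 85.8 to 88.2 for the other genes, which are the values of the single BLM lists. Both BLM peaks over the *Krt23* promoter had a −log10 q of at least 5. No paired analysis was possible because no result comes from a test, and values by replicate number stand only as a description. The depth is unknown, so a missing CTRL peak says that none was called, not that binding was absent.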
